A study of Mus musculus with 14 samples.

Results

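The data describe H3K4me3, trimethylation of lysine 4 of histone H3, at the 10 mouse genes Kmt2a, Kmt2b, Kmt2c, Kmt2d, Setd1a, Setd1b, Men1, Cxxc1, Ncoa6 and Paxip1. They encode the 6 H3K4 methyltransferases of the KMT2 and SETD1 families and 4 partners that belong to particular complexes, and they were chosen by name from 21938 protein-coding genes. For each gene, every H3K4me3 peak with a base in the gene or within 1 kb of one of its transcription start sites (TSSs) was taken, with its width, together with every putative enhancer in the gene or within 50 kb of it. The measurements came from ChIP-seq, chromatin immunoprecipitation followed by sequencing, in iMEF cells, an immortalised line of mouse embryo fibroblasts. All cells came from animals with floxed Ash2l and carried an inducible Cre recombinase, their endogenous Ash2l had lost exon 4, and they lived on human ASH2L with an N-terminal FKBP12F36V tag that a lentiviral vector had brought in. The compound dTAG links that tag to an E3 ubiquitin ligase so that the fusion protein is degraded. The 12 H3K4me3 libraries formed 6 groups of 2 replicates, with no dTAG or with dTAG for 30 min, 2 h, 4 h, 8 h or 16 h, and 2 input libraries came from cells without dTAG and from cells treated for 16 h. The study names NG3, a single selected clone, as the cells of its histone ChIP-seq, and the labels do not give the clone of each library.

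The files analysed hold positions only. The 25431 H3K4me3 peaks are a union over all libraries, of which 74 lay outside the 21 chromosomes used here. The 32965 listed putative enhancers were defined in control cells, and the study states a slightly smaller number. Each width is that of a region of the union, and how peaks of different libraries were joined into it was not given in the sources used here. Depth per library is unknown from these lists, no value below has a replicate error, and the groups could not be compared from these lists. Widths and counts are therefore given as descriptions beside the same values for all protein-coding genes, without a test. As a check of the cell type, all 10 fibroblast markers examined had a TSS peak, from 382 bp at Col3a1 to 3018 bp at Prrx1. Of 12 markers of blood, endothelial, epithelial, stem, neural and liver cells, the 10 genes Ptprc, Cd3e, Cdh5, Pecam1, Krt5, Pou5f1, Nanog, Sox2, Neurod1 and Alb had none. The exceptions were the epithelial genes Epcam and Cdh1, with peaks of 724 and 602 bp, both wider than that of Col3a1.

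The 6 methyltransferases share a catalytic SET domain and work on a common core of WDR5, RBBP5, ASH2L and DPY30. KMT2A and KMT2B are joined by menin, the product of Men1 and a tumour suppressor, while SETD1A and SETD1B are joined by CXXC1, whose zinc finger binds unmethylated CpG dinucleotides. KMT2C and KMT2D are joined by NCOA6, a coactivator of nuclear receptors, and by PAXIP1, a protein with BRCT domains that takes part in the DNA damage response. H3K4me3 marks active and poised promoters, above all those in CpG islands, whereas enhancers carry mainly H3K4me1, a mark that KMT2C and KMT2D place.

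The sequences below show the 4 situations that the results turn on, in the mouse build mm10 (GRCm38), each read 5′ to 3′ on the strand of its gene and with every CpG in capitals. The promoters are RefSeq entries of 300 bases, from 250 before the start to 50 after it. Such entries were matched for 7 of the genes, and those of Kmt2b, Setd1b and Cxxc1 are named only. The promoter of Kmt2d lay wholly within the widest peak of the 10 genes, that of Kmt2c held the most CpGs, 56 in 300 bases, and 60.3% of that of Kmt2a lay in peaks, with the gap between 2 peaks running through it.
Kmt2d promoter, chr15:98871156-98871455, minus strand: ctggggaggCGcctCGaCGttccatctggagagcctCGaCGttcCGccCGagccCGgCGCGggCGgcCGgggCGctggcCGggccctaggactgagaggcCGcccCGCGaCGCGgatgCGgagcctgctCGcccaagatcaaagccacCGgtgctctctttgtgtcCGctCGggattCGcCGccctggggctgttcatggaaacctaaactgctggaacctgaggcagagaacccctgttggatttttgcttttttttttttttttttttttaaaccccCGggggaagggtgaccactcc
Kmt2c promoter, chr5:25498734-25499033, minus strand: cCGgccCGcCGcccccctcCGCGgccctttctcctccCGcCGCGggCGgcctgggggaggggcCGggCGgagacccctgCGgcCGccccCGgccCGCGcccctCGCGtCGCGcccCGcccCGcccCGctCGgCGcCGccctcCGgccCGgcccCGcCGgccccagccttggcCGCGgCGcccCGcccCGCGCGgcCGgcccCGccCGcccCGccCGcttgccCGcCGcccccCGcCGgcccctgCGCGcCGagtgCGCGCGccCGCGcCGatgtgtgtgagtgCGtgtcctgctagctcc
Kmt2a promoter, chr9:44881240-44881539, minus strand: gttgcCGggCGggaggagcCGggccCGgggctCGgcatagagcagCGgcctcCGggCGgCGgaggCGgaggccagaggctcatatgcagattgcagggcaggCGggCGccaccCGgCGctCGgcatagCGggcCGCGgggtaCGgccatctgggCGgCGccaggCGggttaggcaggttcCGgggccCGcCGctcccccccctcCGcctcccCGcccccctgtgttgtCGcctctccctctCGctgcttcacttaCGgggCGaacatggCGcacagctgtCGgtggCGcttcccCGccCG

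Ncoa6 had starts with and without a peak. Its RefSeq promoter held 1 CpG and lay outside every peak, whereas the 300 bases placed in the same way around the start of its GENCODE gene model held 32 CpGs and lay wholly within a peak.
Ncoa6 RefSeq promoter, without a peak, chr2:155440734-155441033, minus strand: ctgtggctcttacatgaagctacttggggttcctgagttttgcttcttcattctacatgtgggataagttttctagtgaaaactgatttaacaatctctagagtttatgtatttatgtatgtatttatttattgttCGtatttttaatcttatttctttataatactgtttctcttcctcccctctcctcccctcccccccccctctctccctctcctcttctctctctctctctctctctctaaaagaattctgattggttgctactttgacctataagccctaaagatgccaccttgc
Ncoa6 at the marked start, chr2:155473845-155474144, minus strand: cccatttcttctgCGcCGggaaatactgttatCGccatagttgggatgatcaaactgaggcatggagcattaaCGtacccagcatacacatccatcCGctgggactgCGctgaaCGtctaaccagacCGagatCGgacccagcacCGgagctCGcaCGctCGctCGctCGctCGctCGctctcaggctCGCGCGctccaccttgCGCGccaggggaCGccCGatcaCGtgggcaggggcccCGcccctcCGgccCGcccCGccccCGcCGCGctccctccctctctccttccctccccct

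The first RefSeq promoter of Men1, with 11 CpGs, carried no peak although a CpG island began in its last bases. The other RefSeq promoters of Men1, which start farther downstream, held 16 CpGs each and also lay outside every peak.
Men1 promoter, chr19:6334729-6335028, plus strand: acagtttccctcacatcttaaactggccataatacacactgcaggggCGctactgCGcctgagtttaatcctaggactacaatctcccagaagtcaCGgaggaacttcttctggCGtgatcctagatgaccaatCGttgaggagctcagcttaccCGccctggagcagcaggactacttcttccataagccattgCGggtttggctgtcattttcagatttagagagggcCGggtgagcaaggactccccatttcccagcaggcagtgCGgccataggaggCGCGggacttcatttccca

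Short peaks inside introns are shown whole for Kmt2c, where 295 bases held 6 CpGs, and for Setd1b, where 200 bases held none.
Kmt2c intron peak, chr5:25472029-25472323, minus strand: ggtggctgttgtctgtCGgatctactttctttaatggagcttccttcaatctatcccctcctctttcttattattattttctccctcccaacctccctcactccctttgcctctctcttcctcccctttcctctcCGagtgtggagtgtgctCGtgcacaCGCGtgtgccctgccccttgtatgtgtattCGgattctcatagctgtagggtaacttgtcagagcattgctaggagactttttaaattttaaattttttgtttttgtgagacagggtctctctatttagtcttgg
Setd1b intron peak, chr5:123150355-123150554, plus strand: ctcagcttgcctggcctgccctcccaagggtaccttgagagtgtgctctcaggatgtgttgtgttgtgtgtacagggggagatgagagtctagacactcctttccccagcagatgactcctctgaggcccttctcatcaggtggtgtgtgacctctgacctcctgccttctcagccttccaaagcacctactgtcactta

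In all, 9 of the 10 genes had a TSS peak, and none was listed at Men1. The background is high, since 59.1% of protein-coding genes had a TSS peak, and 90.0% of those with a CpG island within 1 kb of a TSS, a property that all 10 genes shared. The 10 genes carried 16 peaks, 12 at TSSs and 4 in gene bodies only. With peaks taken as listed, the widths of the 6 enzyme genes and of the 3 marked partners among the 10 genes did not overlap. This does not extend to all subunits, since the widest peak of Hcfc1, 1 of 7 further subunit genes described below, measured 3599 bp. The widest TSS peaks of the 6 methyltransferase genes measured 2348 to 4326 bp, with a median of 2940 bp, and those of the 3 marked partners 1021 to 2002 bp, with a median of 1844 bp. The median over the 9 marked genes was 2469 bp, wider than 92.8% of the 12966 protein-coding genes with a TSS peak, whose median was 1255 bp and whose quartiles were 908.0 and 1710 bp.

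Gene by gene, the order was Kmt2d at 4326 bp, Setd1b at 4026 bp, Kmt2c at 3262 bp, Setd1a at 2617 bp, Kmt2b at 2469 bp, Kmt2a at 2348 bp, Ncoa6 at 2002 bp, Paxip1 at 1844 bp and Cxxc1 at 1021 bp. Only 51 of the 12966 genes had a wider TSS peak than Kmt2d and 83 a wider one than Setd1b, while 8704 had a wider one than Cxxc1. Exactly the 6 enzyme genes lay above 2278 bp, the 90th percentile, which by its definition 10.0% of marked genes exceed. The nearest of the 10 genes on either side of that value were Kmt2a, at the percentile 91.0, and Ncoa6, at 84.1. Within its own chromosome Kmt2d stood at the percentile 99.4 of 510 marked genes on chromosome 15, Setd1b at 99.3 of 814 on chromosome 5 and Kmt2a at 91.8 of 742 on chromosome 9. Among all marked genes at least as long as Kmt2b, the shortest enzyme gene with 19.9 kb, the median was 1268 bp, and 10.2% exceeded 2278 bp. The widths carry no known error, so whether neighbours in this order such as Kmt2a and Kmt2b differ was not tested.

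**Figure D1:**
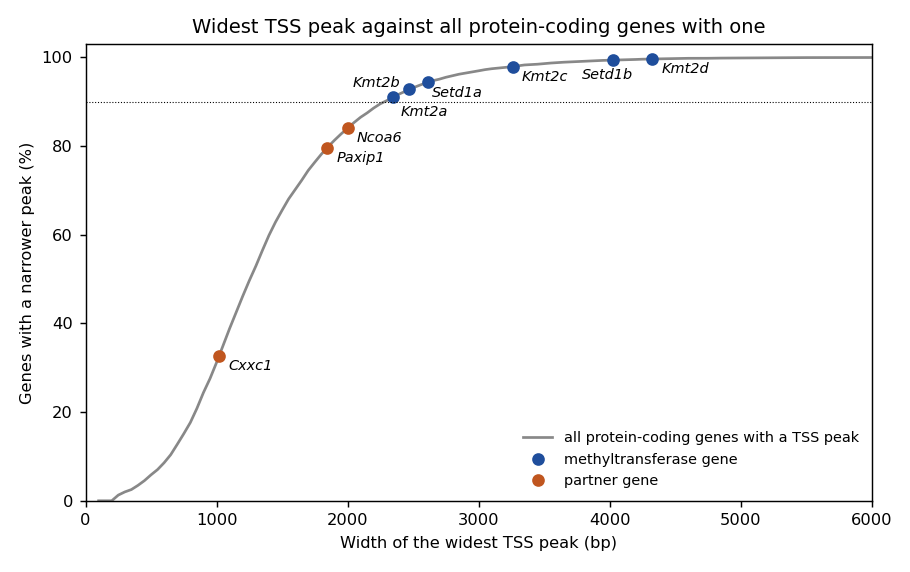
Width in bp of the widest TSS peak (x axis) against the percentage of the 12966 protein-coding genes with a TSS peak whose widest peak was narrower (y axis). The grey curve is all such genes, points are 9 of the 10 genes (blue methyltransferases, orange partners, Men1 without a peak not drawn), and the dotted line is the 90th percentile. All 6 blue points lie above the line and the 3 orange points below it.

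The width depends on how close neighbouring peaks are treated. Kmt2a had 2 TSS peaks of 2348 and 1738 bp separated by 119 bp, Paxip1 had 2 of 1844 and 762 bp separated by 91 bp, and Cxxc1 had 2 of 1021 and 553 bp separated by 185 bp. These are 3 of 9 marked genes, against 40.3% of all marked genes with 2 or more TSS peaks. When peaks less than 1 kb apart were joined, Kmt2a reached 4205 bp, Paxip1 2697 bp and Cxxc1 1759 bp, Kmt2b reached 2928 bp with a short peak inside the gene, and Setd1b reached 9859 bp with peaks upstream. The enzyme genes and the partners then overlapped, since Paxip1 was wider than Setd1a, which stayed at 2617 bp. The 90th percentile then rose to 3028 bp, so that 4 of the 6 enzyme genes remained above it, namely Kmt2a, Kmt2c, Kmt2d and Setd1b, and Kmt2b and Setd1a fell below.

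**Figure D2:**
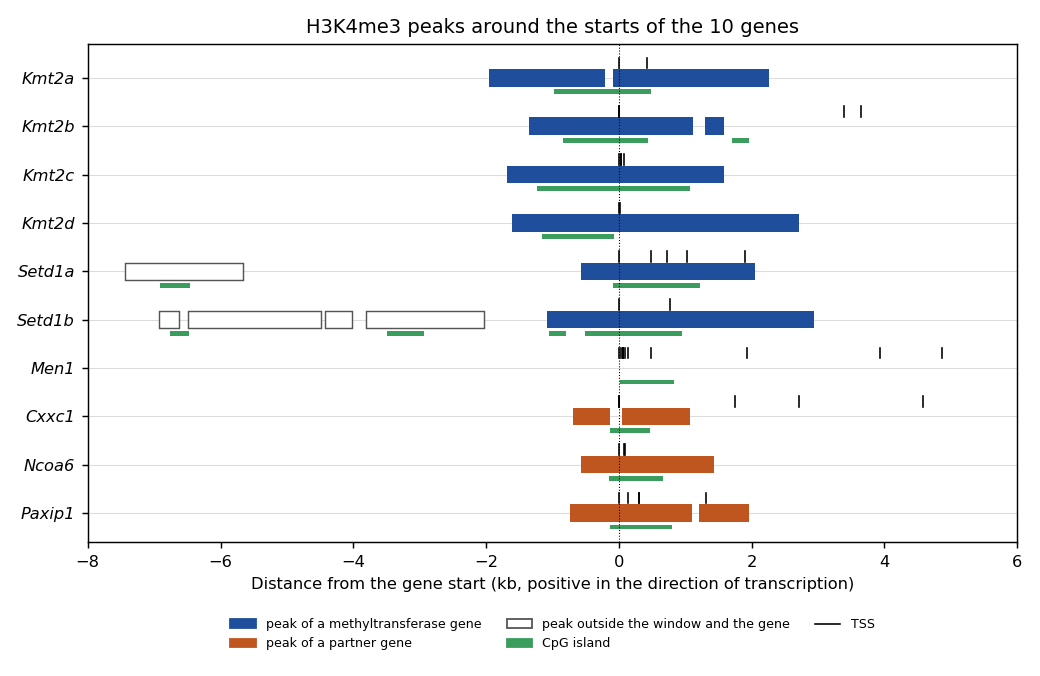
Peaks within 8 kb upstream and 6 kb downstream of each gene's start (x axis, kb, positive in the direction of transcription), one row per gene. Filled bars are peaks counted for the gene, open bars other peaks, green bars CpG islands and black ticks TSSs. Bars straddle the start in 8 genes, the start of Cxxc1 falls between 2 bars, and Men1 has a CpG island but no bar.

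Among the SETD1 complex genes, both enzymes had a single TSS peak. Setd1a (chr7:127776670-127800122, plus strand) had 1 peak at chr7:127776104-127778720, which held all 5 of its TSSs and lay 44.1% in exons and 34.3% in introns of the gene. Setd1b (chr5:123142193-123168629, plus strand) had its widest peak at chr5:123141104-123145129, reaching 1089 bp upstream and 2936 bp downstream of the gene start, with 2 CpG islands and 222 CpGs. Upstream of it lay 4 further peaks of 299, 1995, 399 and 1787 bp, the nearest 936 bp away, which fell outside the 1 kb window. With them the run of 5 peaks extended over 9859 bp, of which peaks covered 8506 bp, and AI480526, a long noncoding RNA gene on the opposite strand, had TSSs in 3 of them. Cxxc1 (chr18:74216124-74221496, plus strand), at 5.37 kb the shortest of the 10 genes, had the least wide of the 9 widest TSS peaks, at 1021 bp. None of its TSSs lay inside a peak, and its 2 starts at the gene's 5′ end lay in the gap of 185 bp, 133 bp from the upstream peak and 44 bp from the downstream one.

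Among the KMT2A and KMT2B complex genes, Kmt2a (chr9:44803355-44881296, minus strand) had a peak at chr9:44879042-44881389 that reached 2254 bp into the gene and only 93 bp upstream, and a further peak began 212 bp upstream of the start. An antisense transcript, AC061963.1, had a TSS in that further peak. Kmt2b (chr7:30568858-30588726, minus strand) had a peak at chr7:30587606-30590074 that extended 1348 bp upstream and 1120 bp downstream of the start and held the start of the microRNA gene Mir3569. The upstream peak of Kmt2a and the peak of Kmt2b held 6.21 and 6.93 CpGs per 100 bp, against 4.73 in the peak over the start of Kmt2a. The median over the widest TSS peaks of marked genes was 5.64, and Kmt2b stood at the percentile 69.5.

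Men1 (chr19:6334979-6340891, plus strand) had no peak at any of its 12 TSS positions, although a CpG island of 810 bp at chr19:6334997-6335806 covered 8 of them. The gene lay in an interval without peaks of 698 kb, chr19:6141824-6839556. The nearest peaks were 193 kb below and 499 kb above the gene, the nearest enhancers 209 kb below and 529 kb above it, and 0 enhancers lay within the interval. All TSSs of 13 protein-coding genes fell inside, and 10 of these genes, Men1 included, had a CpG island within 1 kb of a TSS and no peak. On either side, within 900 kb of Men1, 49 of 52 genes with such an island had a TSS peak. Among the 25378 stretches between neighbouring peaks or chromosome ends, this one ranked 4th by the number of gene starts with an island, and the stretch with the most held 18. The interval was noticed after the values were seen. The lists do not show how many reads, from the H3K4me3 libraries or the inputs, were mapped to the interval, nor whether these cells carry its DNA. Unmarked chromatin at Men1 and a lack of data there therefore cannot be told apart, and 9 of 10 counts the listed peaks only.

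**Figure D3:**
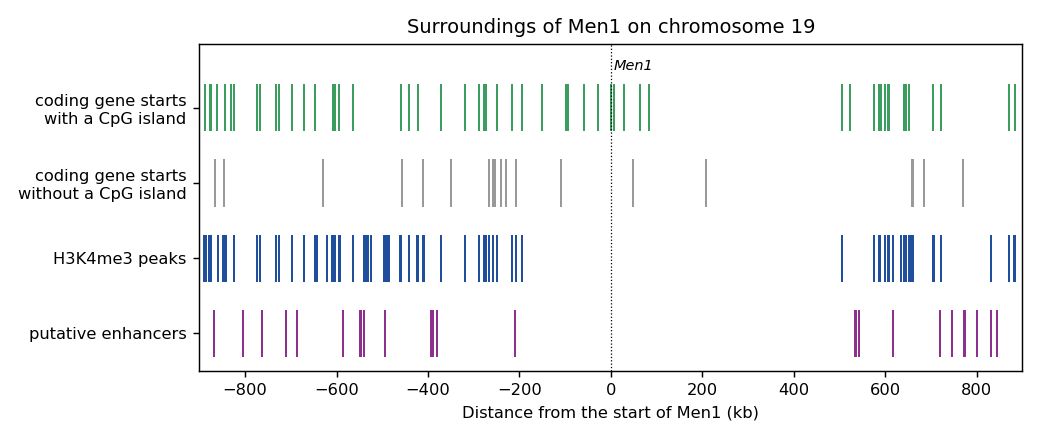
Positions within 900 kb of the start of Men1 (x axis, distance in kb, dotted line at Men1). Rows show starts of 62 protein-coding genes with a CpG island, starts of 21 without one, 99 H3K4me3 peaks and 27 putative enhancers. The rows of peaks and enhancers are empty around Men1, from 193 kb below to 499 kb above it, while the rows of gene starts are not.

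Among the KMT2C and KMT2D complex genes, Kmt2d (chr15:98831669-98871204, minus strand) had 1 peak at chr15:98868488-98872813, with 1609 bp upstream and 2716 bp downstream of the start and 58.4% of its bases in introns of the gene. At 4326 bp it was the widest of the 10 genes, but among the widest TSS peaks of the 9 marked genes it had the lowest CpG density, 4.11 per 100 bp, and its CpG island of 1088 bp lay upstream of the start. Kmt2c (chr5:25271798-25498783, minus strand), with 227 kb the longest gene, had its widest peak at chr5:25497203-25500464, nearly symmetric with 1681 bp upstream and 1580 bp downstream. That peak had the highest CpG density, 9.87 per 100 bp or 322 CpGs, and an observed over expected CpG ratio of 0.949, higher than in 95.7% of the widest TSS peaks of marked genes. Paxip1 (chr5:27740080-27791691, minus strand) had its widest peak at chr5:27790583-27792426 with 140 CpGs, and next to it the only TSS peak of the 12 without an island, 762 bp wide with 18 CpGs.

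Ncoa6 (chr2:155390656-155473894, minus strand) was marked at one of its groups of starts. The peak at chr2:155472463-155474464 held 3 TSSs at the upstream end of the gene model, and 2 protein-coding transcripts that begin 33111 and 33109 bp downstream had no peak. RefSeq placed the start of both curated Ncoa6 transcripts at the unmarked position, and those of 4 predicted transcripts within the peak. Over 3 kb downstream of a gene's start, and leaving out Men1, the 9 marked genes had 25 further TSS positions, 8 of them of protein-coding transcripts, and 0 lay within 1 kb of a peak. The background is low, since of 23057 such positions in all protein-coding genes with a peak within 1 kb of the gene start, 10.3% lay within 1 kb of a peak. Nearer to the start, internal TSSs of Setd1a and Paxip1 lay in peaks, up to 1907 and 1318 bp downstream. Of all 66 TSS positions of the 10 genes, 25 lay in a peak and 28 within 1 kb of one.

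Features that the choice of genes did not use were compared next. The widest TSS peak overlapped a CpG island in all 9 marked genes, against 86.3% of marked genes. Its GC content was 58.2 to 64.6%, with a median of 61.0% against 58.4%, and its observed over expected CpG ratio was 0.490 to 0.949, with a median of 0.733 against 0.678. The 2 lowest ratios belonged to Kmt2d and Kmt2a, at the percentiles 13.9 and 16.5. A noncoding gene started inside the widest peak of Kmt2b, Kmt2c, Kmt2d and Setd1b, 4 of 9 marked genes against a background of 10.6%. The genes were the lincRNAs 4831440E17Rik at Kmt2c, 284 bp from its start, AI480526 at Setd1b, 527 bp away, and 5730414N17Rik at Kmt2d, 1440 bp away, all upstream on the strand opposite to the enzyme gene, Gm49437 at Kmt2d, 1409 bp upstream on the strand of Kmt2d and of the GENCODE type TEC, and Mir3569 at Kmt2b, 654 bp away. All 4 peaks were also above the 90th percentile in width, and the part of width in this count was not tested. In 0 of 9 marked genes did the widest peak come within 1 kb of a TSS of another protein-coding gene, against 21.4%. Of the 8 widest peaks that contained the gene's start, 6 reached farther downstream than upstream, against 87.0%, the exceptions being Kmt2b and Kmt2c.

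Letters of known motifs were searched on both strands of the 7 RefSeq promoters, of which those of Ncoa6 and Men1 lay outside every peak. GGGCGG, the GC box, was found in those of Kmt2a, Kmt2c, Kmt2d, Men1 and Paxip1. These were 5 of 7, against 35.7% of 32851 promoters of the same length, and the promoter of Kmt2c held 12 matches. The motif contains a CpG, and these 5 promoters held 36, 56, 27, 11 and 28 CpGs in that order. The median over the 32851 promoters was 7 CpGs. That of Setd1a, with 35 CpGs, had no match. The part of CpG content in this count was not tested. CCAAT was found in Men1 and Ncoa6 against 37.4%, and TATAAA in Ncoa6 alone against 13.6%. GCATGCGC, part of the NRF1 motif, was found in Paxip1 alone, 1 of 7, against 2.71% of all promoters. Its 2 matches there overlap on opposite strands of the same site. The core of the ETS site, CCGGAAG, was in 0 of 7 against 8.86%. The same held for the CREB site TGACGT, found in 7.51% of all promoters, for the E-box CACGTG, found in 7.15%, and for the EGR site GCGTGGG, found in 5.04%. The sequence shown above for the marked start of Ncoa6 was not among the 7. It holds the letters of the E-box and, on the opposite strand, those of the GC box. The counts for Ncoa6 therefore describe its unmarked start only. Neighbouring matches of 1 motif could overlap and were then all counted, and a match is a description of the sequence only.

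Peaks in gene bodies, outside the TSS windows, were found in Kmt2a, Kmt2b, Kmt2c and Setd1b, 4 of the 10 genes against 13.6% of protein-coding genes. Kmt2a and Kmt2c were longer than 85.0% and 96.2% of protein-coding genes, and the part of gene length in this count was not tested. These peaks measured 240, 276, 295 and 200 bp and overlapped no CpG island, with 4, 5, 6 and 0 CpGs. All 4 were short, and a minimum peak width of 500 bp removed them. The peak of Kmt2b lay 1294 bp from the nearest TSS, just outside the window of 1 kb and 183 bp from the promoter peak, whereas those of Kmt2a, Kmt2c and Setd1b lay 14317, 26378 and 7397 bp from the nearest TSS of their gene. The peaks of Kmt2c and Setd1b each overlapped a putative enhancer.

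Putative enhancers were found in or within 50 kb of Kmt2a, Kmt2b, Kmt2c, Setd1a, Setd1b and Ncoa6, 6 of the 10 genes against 62.3% of protein-coding genes, and 77.4% of those with a TSS peak. The 17 enhancers comprised 4 at Kmt2c, 3 each at Kmt2a, Setd1a, Setd1b and Ncoa6 and 1 at Kmt2b. Kmt2d, Men1, Cxxc1 and Paxip1 had 0, and their nearest enhancers lay 57.7, 209, 64.3 and 245 kb from the gene. The median was 2.0 per gene, or 10.3 per Mb of gene and flanks, against 1 and 9.10 for all protein-coding genes, and the median count was 2 for those with a TSS peak. Kmt2d combined the widest promoter peak with no enhancer within 50 kb. The single enhancer counted for Kmt2b lay 44.2 kb from the gene.

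Of these 17 enhancers, 7 lay in the gene, 8 upstream and 2 downstream. Those in Kmt2a, at chr9:44826414-44826866 and chr9:44831181-44831509, overlapped its exons by 45 and 174 bp. Those of Ncoa6 included regions 2.82 and 12.8 kb from its unmarked downstream start, and a region of 1635 bp at chr2:155472576-155474210 that lay inside the promoter peak and over its TSSs. That region overlaps the window of 1 kb around GENCODE TSSs that the enhancer definition was meant to leave out. The methods took the TSSs of known mm10 promoters and cite GENCODE release M25, whereas release M21 was used here. At Setd1b, an enhancer of 1797 bp at chr5:123137602-123139398, 2.79 kb upstream of the start, overlapped the run of upstream peaks. It also lay over a TSS of the noncoding gene AI480526. Another lay in Psmd9, 514 bp from a Psmd9 TSS and 6.55 kb from an internal Setd1b TSS without a peak. The 3 enhancers near Setd1a lay in Fbxl19, 15.7 to 31.9 kb upstream of Setd1a, the farthest of them over a TSS of Fbxl19, and the one near Kmt2b lay in Arhgap33. The regions at the TSSs of AI480526, Fbxl19 and Psmd9 also overlap the window of 1 kb that the definition was meant to leave out. Upstream of Kmt2c there were 3, at 14.4, 45.0 and 45.7 kb, and upstream of Kmt2a 1, at 23.6 kb. A TSS of the named gene was the nearest protein-coding TSS for 8 of the 17, and for 9 it was a TSS of another gene. In all, 5 of the 17 overlapped an H3K4me3 peak, against 7.52% of all enhancers. These 5 include the regions over TSSs of Ncoa6, Fbxl19 and AI480526. The median width of the 17 was 590.0 bp against 405.0 bp.

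**Figure D4:**
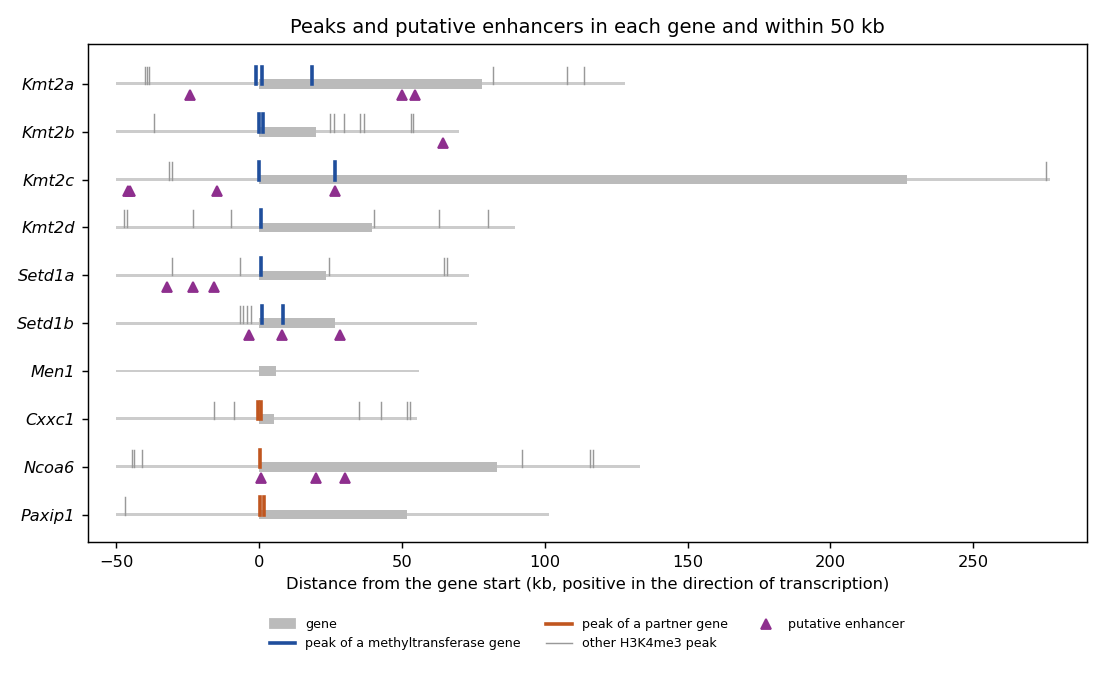
Each gene (thick grey bar) and the 50 kb on either side (thin bar), with distance from the gene's start in kb on the x axis, positive in the direction of transcription. Coloured lines are the 16 peaks counted for the genes, thin grey lines other H3K4me3 peaks and purple triangles the 17 putative enhancers. Kmt2d, Men1, Cxxc1 and Paxip1 have no triangle.

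The same widths were taken for other genes of H3K4 methylation and for further methyltransferases, as values without a test. Wide peaks were also found outside these lists, since the 10 fibroblast markers had a median of 2559 bp and 7 of them lay above the 90th percentile. The 4 core subunit genes all had a TSS peak, from 1236 bp at Dpy30 to 2234 bp at Wdr5, with a median of 1652 bp and 0 above the 90th percentile. The 7 genes of further subunits all had one, from 1449 bp at Hcfc2 to 3599 bp at Hcfc1, with a median of 1757 bp and 1 above the 90th percentile. Of 6 H3K4 demethylase genes 5 had one, from 1324 bp at Kdm1a to 2475 bp at Kdm5a, with a median of 1949 bp and 1 above the 90th percentile, and the Y-linked Kdm5d had none. The 21 genes of other SET domain and lysine methyltransferases all had one, from 759 bp at Prdm9 to 2828 bp at Ehmt2, with a median of 1420 bp and 4 above the 90th percentile. Among the 48 genes of the 10 and of these 4 lists, fibroblast markers left out, Kmt2d and Setd1b ranked 1 and 2, Kmt2c 4, Setd1a 7, Kmt2b 9 and Kmt2a 11.

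**Figure D5:**
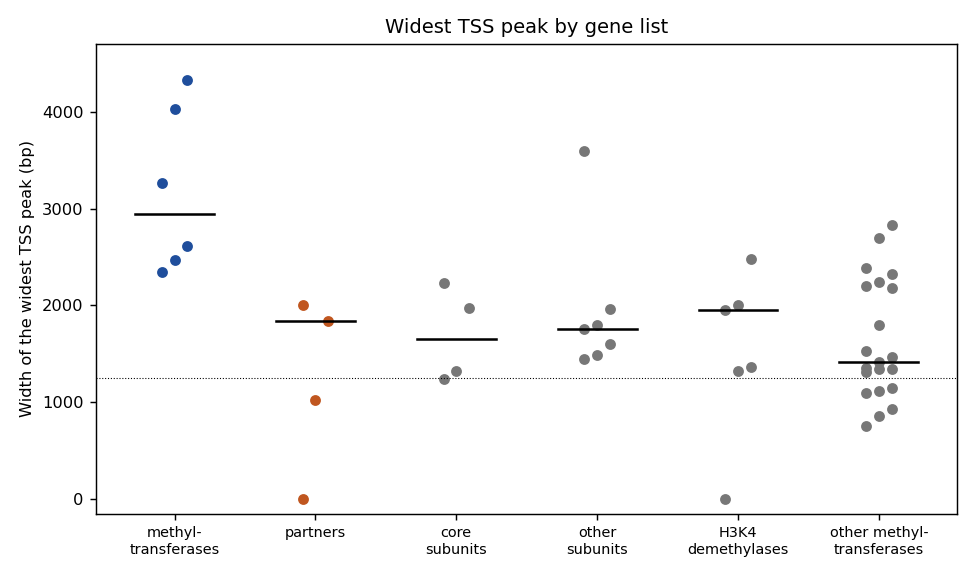
Width in bp of the widest TSS peak (y axis) of each gene, by gene list, with 0 for genes without a TSS peak. Horizontal bars are medians over the genes with a peak and the dotted line is the median of 1255 bp over all protein-coding genes with one. The methyltransferase genes lie between 2348 and 4326 bp, above all 4 core subunit genes.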

How the data were processed

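H3K4me3 was measured by ChIP-seq in iMEF cells (12 libraries and 2 inputs). Per the authors' methods and processing notes, Trim Galore trimmed the reads, BWA aligned them to mm10, SAMtools filtered them, Picard merged the replicates and MACS2 called narrow peaks. Enhancers were regions away from TSSs where accessible chromatin, H3K27ac and H3K4me1 coincided in control cells. The 2 deposited lists used hold positions (chromosome, start, end) and 0 columns of values per sample, and the study's list of changed sites was not analysed here, so the count test that had been planned could not be run and the replicates could not be compared.

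Peak starts were taken to count from 0 and enhancer starts from 1, as their widths show, and all positions are given counting from 1. Every transcript of GENCODE M21 gave a TSS at its 5′ end, and 0 regions reached past a chromosome end of GRCm38.p6. CpG islands (16262) were called from the repeat-masked reference, with a score of 17 per CpG and -1 at other bases, as segments over 200 bp, over 50% GC and with an observed over expected CpG ratio over 0.6. A percentile of width is the share of marked protein-coding genes with a narrower widest TSS peak. For CpG density and CpG ratio it is the share of those genes with a lower value in that peak. Percentiles within a chromosome use only its own marked genes. Functions were tested on simulated data. The genes, lists and comparisons were chosen with earlier results of these data known. Genes named beside the 10 were those holding an enhancer or a TSS in a peak, and the widest, narrowest and unmarked of each list. One marker gene of the design is not reported here. Python 3.11.15, NumPy 2.4.6, SciPy 1.17.1, Numba 0.67.0 and Matplotlib 3.10.9 were used.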

Additional observations from a re-analysis of the deposited data

How the results depend on the processing

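Other TSS sets (1 per gene, or protein-coding transcripts only), TSS windows of 500 bp and 2 kb, and peaks of at least 500 bp left 9 genes with a TSS peak and the median widest peak at 2469.0 bp, and the stricter CpG islands left 9 genes with an island. The percentile of that median was 93.3 with 1 TSS per gene and 92.3 with peaks of at least 500 bp. That minimum also reduced the 16 peaks to 12, since it left out the 4 in gene bodies. Joining peaks within 1 kb gave a median of 2928.0 bp at the percentile 88.6, and 4 in place of 6 genes above the 90th percentile, a count examined after seeing the data. The 17 enhancers became 9 within 10 kb, 33 within 100 kb, 7 in the gene bodies, 12 without those that overlap a peak and 17 by their centres. Genes with an enhancer numbered 4, 8, 4, 6 and 6 in that order, against 6. No paired analysis was possible because neither table separates the replicates. The paper's methods give a minimum of raw reads planned per ChIP sample and a normalisation to the lowest coverage. The depth of each library is unknown from these lists, so whether a peak at any of the genes, Men1 included, was missed could not be assessed.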

Other observations

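The genes that share the interval without peaks with Men1 were named after their values were seen. Those with a CpG island within 1 kb of a TSS were Majin, Ppp2r5b, Atg2a, Ehd1, Cdc42bpg, Map4k2, Sf1, Rasgrp2 and Nrxn2, and those without were Gpha2, Pygm and Slc22a12. Sf1 encodes a splicing factor, Ehd1 an endocytic recycling protein and Atg2a an autophagy protein, and none of the 3 had a peak. The stretches with more such gene starts lay on chromosome 14, with 18 in 5961 kb from the chromosome's first base, on chromosome 19, with 13 in 256 kb at chr19:4012774-4268337, and on chromosome 16, with 11 in 569 kb at chr16:17928713-18498052. The stretch with 13 lay on the same chromosome as Men1, and 0 enhancers lay in it.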
